A study of Mus musculus with 36 samples.

Results

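The Rsl1 cluster is a run of KRAB zinc finger genes on mouse chromosome 13, the chromosome that also carries H2afy, 1 of the genes deleted in the mice of this study. Its 10 genes described here were Zfp708, Rsl1, Zfp455, Zfp458, Zfp457, Zfp456, Zfp429, Zfp874a, Zfp874b and Zfp273, out of 54115 genes quantified. They are neighbours in the cluster and were chosen by their summed reads in dKO against WT samples of bulk tumours and 3 cell types, with no numerical threshold, so the values and calls of that contrast are given below as a description and are no test of the members.

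The libraries were poly-A RNA-seq of 36 samples. The bulk tumours and sorted cells came from mice of a melanoma model with Tyr-CreERT2 and Braf CA among its alleles, in which topical 4-hydroxytamoxifen starts melanoma in melanocytes (the Tyr promoter drives the recombinase there). The dKO samples lacked macroH2A1 (H2afy) and macroH2A2 (H2afy2) by constitutive deletion, and the WT samples carried both genes. The melanoma line (B6 and FVB) had been crossed with lines of another inbred strain (the macroH2A knockout line or its wild-type counterpart), so the background was mixed, and alleles inherited with the targeted H2afy locus on chromosome 13 cannot be told apart from the loss of macroH2A. Bulk tumours were taken 50 days post induction (6 dKO, of which 1 female and 5 male, and 6 WT, of which 4 female and 2 male, over 3 batches). CD8 T cells and cancer-associated fibroblasts (CAFs, sorted on CD140a, the receptor Pdgfra) were sorted from tumours of the same age, with 4 dKO and 4 WT libraries each (2 female and 2 male per genotype). Each of these libraries is labelled with 1 mouse. Immortalized dermal fibroblasts (iDFs) came from skin of male mice without tumours (the sources at hand do not state whether they carried the melanoma alleles), 1 line per genotype, and were serum-starved (0 min) or then given serum for 30 min, with 2 experimental replicates of each genotype and time.

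A KRAB zinc finger protein carries a KRAB domain at its start, which recruits the corepressor Trim28, and an array of C2H2 zinc fingers, each a short loop held by a zinc ion, that together read a DNA sequence. The families grew by tandem duplication, so neighbours in a cluster are often near copies of each other. In mouse liver, Rsl1 (regulator of sex limitation 1) and Rsl2 repress genes that males express more strongly, such as those of complement component 4 and the major urinary proteins. RefSeq gives Rsl2 as a synonym of Zfp429, and gives names of the form Rslcan (Rsl candidate) for Zfp708, Zfp455, Zfp458, Zfp457, Zfp456, Zfp874a, Zfp874b and Zfp273.

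On GRCm38 the 10 genes lay between 67069399 and 67827002 on chromosome 13, a span of 758 kb that began 10.9 Mb past the end of H2afy. From the centromeric end, Zfp708 (67069399 to 67097976) was followed by Rsl1 (67173182 to 67184044), Zfp455 (67194506 to 67209298), Zfp458 (67254918 to 67278466) and Zfp457 (67288138 to 67306485). Zfp456 (67362113 to 67375810), Zfp429 (67387905 to 67399819), Zfp874a (67424549 to 67451624) and Zfp874b (67471513 to 67484258) came next, and Zfp273 (67813740 to 67827002) stood 329 kb past Zfp874b. Rsl1, Zfp455 and Zfp273 were on the plus strand and the other 7 were on the minus strand.

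The longest annotated protein of each gene held 10 to 21 C2H2 fingers (12 in Rsl1 and Zfp455, 10 in Zfp456, Zfp429, Zfp874a and Zfp874b, 15 in Zfp273, 16 in Zfp708, 18 in Zfp457 and 21 in Zfp458). Over the 45 pairs of members, the identity of these proteins ran between 49.3 and 94.0%, with a median of 53.5%. Rsl1 and Zfp429 shared 94.0% of aligned residues, Zfp456 and Zfp429 shared 92.5%, Zfp455 and Zfp456 shared 90.6%, and Rsl1 and Zfp456 shared 90.5%. Zfp455 shared less with Zfp429 (75.1%) and Rsl1 (74.8%). Outside this group of 4, Zfp874a and Zfp874b shared 93.3%, Zfp458 and Zfp457 80.7%, and Zfp708 and Zfp273 73.3%.

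**Figure D1:**
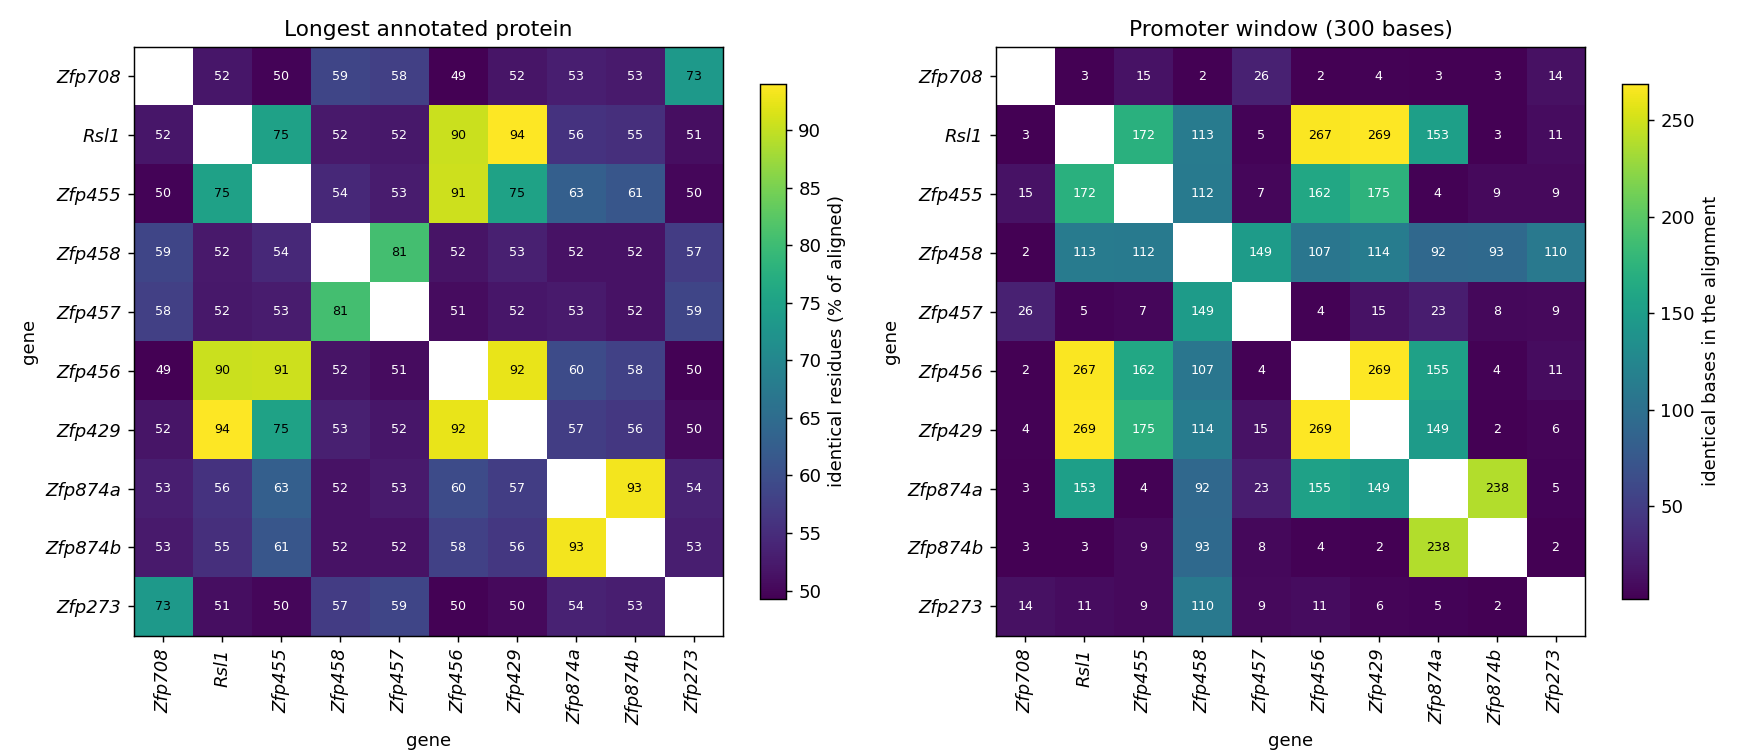
Likeness of the 10 genes, in their order on chromosome 13 on both axes: on the left the percent of identical residues between the longest annotated proteins, on the right the number of identical bases in the alignment of 300-base promoter windows. On the left, Rsl1, Zfp456 and Zfp429 are near copies of each other (Rsl1 and Zfp429 at 94.0%), and Zfp455 is a near copy of Zfp456 alone (90.6%). Zfp874a and Zfp874b are another near-identical pair at 93.3%.

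The stretches below, given for 4 of the genes, show how close copies can be. Each is the last finger of standard spacing that directly followed another finger, which need not be the last finger of the protein. Zfp455 and Zfp456 were the closest of all pairs in this stretch. For Zfp874a and Zfp874b, both of 447 residues and near-identical as whole proteins, the stretches were residues 384 to 411 and 411 to 438. They were therefore different fingers, and the 64.3% of bases they shared does not compare the same finger. These 84-base coding stretches, from the GRCm38 Gencode reference transcripts and written 5′ to 3′ on each gene's strand, carry the codons of the zinc-binding cysteines and histidines in capitals.
Zfp455: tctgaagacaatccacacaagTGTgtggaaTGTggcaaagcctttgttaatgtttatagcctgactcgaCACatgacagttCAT
Zfp456: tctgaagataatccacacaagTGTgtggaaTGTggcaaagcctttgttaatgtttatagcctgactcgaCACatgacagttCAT
Zfp708: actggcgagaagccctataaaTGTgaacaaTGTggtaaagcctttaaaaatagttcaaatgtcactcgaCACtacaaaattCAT
Zfp273: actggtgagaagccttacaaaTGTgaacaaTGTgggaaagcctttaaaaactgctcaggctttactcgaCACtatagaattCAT
Zfp455 and Zfp456 differed at 1 of these bases, and Zfp708 and Zfp273 at 14.

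The promoters of Rsl1, Zfp456 and Zfp429, the genes with the lowest dKO levels relative to WT in both sorted cell types among those that passed the filter on low counts, were near copies too. The RefSeq windows on GRCm38.p6, 250 bases before to 50 bases after the start of each gene, are shown with 3 motifs in capitals. These are the CCAAT box, the GC box GGGCGG, and the core of a site that ZNF143 binds in human, which reads CTGGGA and, after any pair of bases, TGTAGT. They are Rsl1 at chr13:67172932-67173231 on the plus strand, Zfp456 at chr13:67375714-67376013 and Zfp429 at chr13:67399718-67400017, both on the minus strand.
Rsl1: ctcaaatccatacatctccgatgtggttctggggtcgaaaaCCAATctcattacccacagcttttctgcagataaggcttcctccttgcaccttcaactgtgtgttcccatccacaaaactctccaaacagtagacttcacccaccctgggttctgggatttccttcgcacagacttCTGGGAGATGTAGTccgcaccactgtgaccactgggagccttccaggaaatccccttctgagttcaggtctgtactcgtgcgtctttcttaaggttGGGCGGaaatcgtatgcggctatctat
Zfp456: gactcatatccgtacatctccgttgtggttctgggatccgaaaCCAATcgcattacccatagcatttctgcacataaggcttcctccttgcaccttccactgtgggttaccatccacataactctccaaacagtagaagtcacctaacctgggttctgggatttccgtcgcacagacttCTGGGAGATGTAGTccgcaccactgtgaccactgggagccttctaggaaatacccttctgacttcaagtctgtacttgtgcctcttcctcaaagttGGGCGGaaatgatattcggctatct
Zfp429: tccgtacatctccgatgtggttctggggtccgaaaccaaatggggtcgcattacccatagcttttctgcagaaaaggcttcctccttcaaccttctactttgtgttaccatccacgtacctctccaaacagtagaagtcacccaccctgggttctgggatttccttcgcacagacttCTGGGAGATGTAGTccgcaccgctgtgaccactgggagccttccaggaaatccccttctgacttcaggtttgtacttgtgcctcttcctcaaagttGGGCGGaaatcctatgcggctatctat
Of aligned bases, 91.5% were identical between Rsl1 and Zfp429, 92.1% between Zfp456 and Zfp429, and 89.6% between Rsl1 and Zfp456.

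The ZNF143 core, sought on both strands as the other motifs were, was in the promoter window of 5 of the 10 genes (Rsl1, Zfp455, Zfp456, Zfp429 and Zfp273), against 1.13% of 27025 promoter windows of the same length. A second RefSeq window of Zfp708, left out of this count, held it too. This motif was chosen after the sequences had been seen. The GC box was in 3 of the 10 windows against 35.9% of all, and the CCAAT box in 2 of the 10 against 37.9%. The matches printed here do not overlap each other.

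The reads were 75 bases long, and 13.9% of the 75-base windows of Rsl1 transcripts, 13.1% of those of Zfp456 and 12.1% of those of Zfp429 were also in a transcript of another gene. For Zfp874a (4.71%), Zfp874b (8.34%), Zfp455 (4.6%), Zfp457 (4.68%), Zfp458 (1.10%) and Zfp273 (8.01%) the share was smaller. Zfp708 differed from the rest, since 94.3% of its windows were shared, nearly all with the overlapping transcript Gm28557, so its values are uncertain and are also given summed with Gm28557. Of the Zfp456 windows, 49.9% were antisense to Gm17039, which stayed at or below 0.28 CPM in every library. Of the Zfp874b windows, 14.9% were antisense to Gm48899, which passed the filter on low counts in CD8 T cells. Such antisense overlap matters only for the CD8 libraries, whose kit did not keep strand.

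Over the series, 22245177 to 85432438 reads fell in genes in bulk tumour libraries, 17526681 to 28690034 in CD8 libraries, 20164075 to 29135123 in CAF libraries and 22560402 to 30960463 in iDF libraries. RNA of the targeted genes was still counted in dKO libraries, and reads from inside and outside the deleted parts were not separated, so these levels do not check the labels. H2afy had 61.2 to 82.4 CPM in dKO tumours and 90.5 to 122.1 CPM in WT tumours, and its log2 fold change was -0.05 in CD8 T cells and -0.17 in CAFs. H2afy2 was called lower in CAFs (log2 fold change -0.81, edgeR adjusted p = 0.0022). In CAFs, the summed TPM of 6 melanocyte markers was 76.0 to 349.6 in dKO against 388.0 to 566.1 in WT (1 of 6 called lower), and that of 4 keratinocyte markers 13.7 to 41.0 in dKO against 41.0 to 78.0 in WT (2 of 4 called lower). The 6 fibroblast markers summed to 23210 to 28210 TPM in dKO CAFs and 18890 to 24540 TPM in WT CAFs, with none called, and Ptprc, the pan-leukocyte marker, was at or below 0.24 TPM in all CAF libraries. In CD8 libraries no gene of any marker list was called, but the melanocyte markers summed to 3.71 to 6.95 TPM in the dKO libraries, against 4.66 to 9.58 TPM in 3 WT libraries and 186.6 TPM in WT replicate 1. Without that library the log2 fold change in CD8 T cells was -6.08 for Zfp429, -2.35 for Rsl1, -3.65 for Zfp456 and -0.96 for Zfp874a. The part of these other cell types in the results below was not tested.

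Levels between genes are compared in TPM, which allows for transcript length, and levels between libraries in CPM, counts per 1000000 reads after TMM scaling. The WT mean of each of the 10 genes was below the median of the tested genes, which was 10.9 TPM in bulk tumours, 8.73 TPM in CD8 T cells, 13.6 TPM in CAFs and 20.3 TPM in iDFs at 0 min. In WT bulk tumours the order began with Zfp874b (6.55 ± 2.38 TPM), Zfp874a (5.13 ± 2.00), Rsl1 (4.18 ± 1.24), Zfp429 (3.77 ± 2.69) and Zfp273 (3.17 ± 1.30; SD, n = 6) and ended with Zfp456 at 0.923 TPM. Every gene in that order overlapped its neighbours over the 6 tumours.

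WT CD8 T cells put Zfp429 first (8.54 ± 0.891 TPM) and Rsl1 next (8.20 ± 2.74), followed by Zfp874a (7.02 ± 2.09), Zfp874b (5.11 ± 4.37) and Zfp456 (4.22 ± 1.79; SD, n = 4). Below them came a gap, with Zfp456 at 2.35 to 6.66 TPM and Zfp455, the next in order, at 0 to 1.81 TPM. WT CAFs had Zfp874a (3.89 TPM), Rsl1 (2.90), Zfp874b (2.52) and Zfp429 (2.01, 1.65 to 2.21 over libraries) ahead of Zfp458 (1.05, 0.576 to 1.55), which did not overlap Zfp429. WT iDFs at 0 min had Zfp874b at 7.80 TPM and Zfp874a at 7.46 TPM, ahead of Zfp429 at 2.78 TPM and Zfp458 at 2.72 TPM. The place of Zfp429 in that order is uncertain. Its 2 libraries had 0.977 and 4.58 TPM, at only 0.374 to 0.380 CPM. Zfp457 and Zfp708 were at or near the end of the order in CAFs (0.213 and 0.157 TPM) and iDFs (0.582 and 0.669 TPM).

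**Figure D2:**
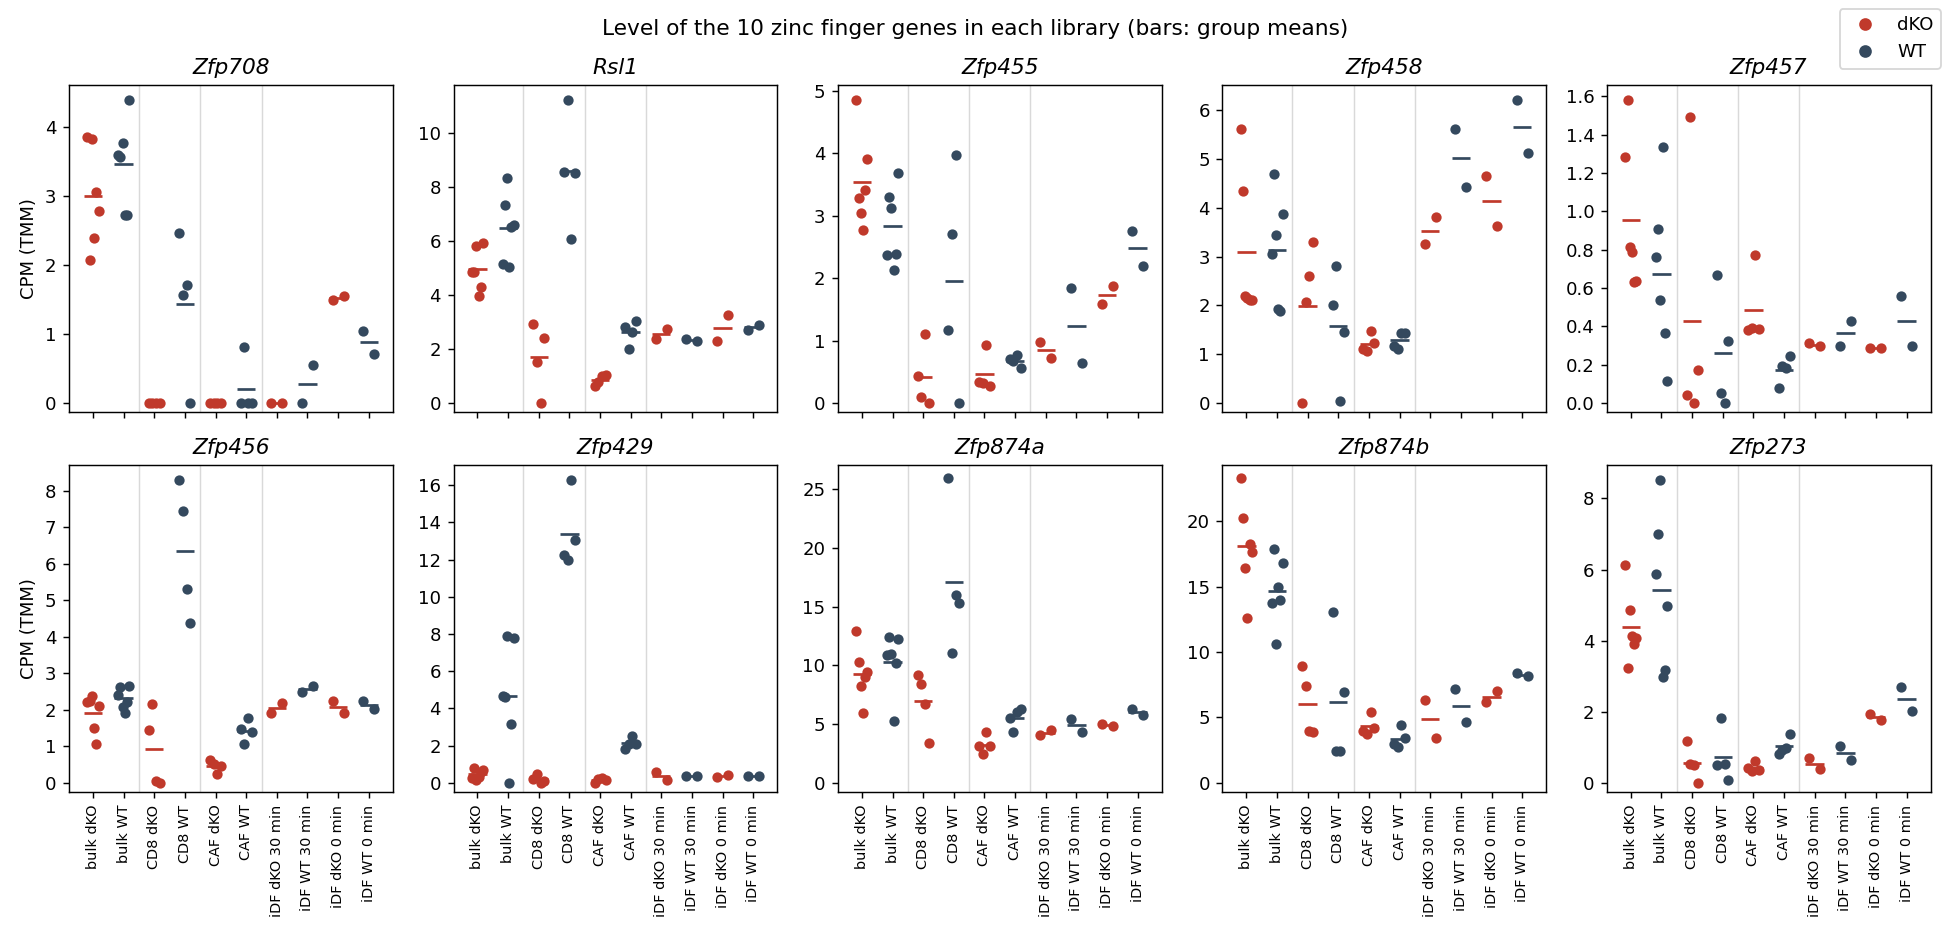
CPM (TMM-scaled, vertical axis) of each of the 10 genes in every library, by group, with dKO in red left of WT in dark blue and bars at group means. Rsl1, Zfp456, Zfp429 and Zfp874a separate the genotypes in CD8 T cells, where Zfp429 is at most 0.498 CPM in dKO and at least 11.96 CPM in WT.

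Zfp429 (Rsl2) had the widest gap between genotypes. In CD8 T cells it had 0.219, 0.498, 0 and 0.116 CPM in the 4 dKO libraries, against 12.2, 11.96, 16.3 and 13.05 CPM in the 4 WT libraries. In CAFs it had 0, 0.179, 0.245 and 0.175 CPM in dKO, against 1.84, 2.07, 2.50 and 2.11 CPM in WT. The genotypes did not overlap in either cell type, and the WT mean was 64.3 times the dKO mean in CD8 T cells (log2 fold change -6.15, SE 0.72) and 14.2 times in CAFs (-3.79, SE 0.47).

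In bulk tumours Zfp429 ran between 0.174 and 0.777 CPM in dKO (median 0.457) and between 0 and 7.90 CPM in WT (median 4.65), a log2 fold change of -2.39 (SE 0.91) that was -0.66 without WT replicate 3 and -3.37 without WT replicate 4. The groups overlapped only through 1 WT tumour at 0 CPM (WT replicate 4, a male of batch 1), while the other 5 WT tumours had 3.17 to 7.90 CPM. Within batch 2 dKO had 0.698 and 0.777 CPM against 4.61 and 7.90 CPM in WT, and within batch 3 dKO had 0.174 and 0.315 CPM against 3.17 and 7.79 CPM in WT. Batch 1 held the WT tumour at 0 beside a WT tumour at 4.69 CPM, against 0.241 and 0.599 CPM in dKO. In whole tumours, fewer cells of a type and less RNA per cell cannot be told apart. In iDFs Zfp429 was low in both genotypes, at 0.169 to 0.587 CPM in dKO and 0.344 to 0.385 CPM in WT over both times.

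The estimated levels of the Zfp429 transcripts did not all share this pattern. Zfp429-201, 2056 bases long, carries the exon with all 10 fingers, and Zfp429-204, 379 bases long, carries none. Zfp429-201 held 0 to 3.7 estimated reads in dKO CD8 libraries against 230.4 to 429.5 in WT, 0 to 6.1 in dKO CAFs against 41.9 to 67.6 in WT, and 0 to 14.0 in dKO tumours against 0 to 599.4 in WT. Its mean TPM was 0.0406 in dKO and 8.03 in WT CD8 T cells, 0.0564 in dKO and 1.93 in WT CAFs, and 0.0507 in dKO and 2.93 in WT bulk tumours. In iDFs it held at most 7.0 reads in any library of either genotype.

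Zfp429-204 went the other way in bulk tumours, at 3.54 ± 1.98 TPM in dKO and 0.787 ± 1.93 TPM in WT (SD, n = 6 each). Among WT tumours only replicate 2 had any (42.0 reads, 4.72 TPM), whereas all 6 dKO tumours held 4.3 to 45.1 reads. As a share of the gene's TPM, Zfp429-204 made up 98.6% in dKO tumours and 20.8% in WT tumours, and Zfp429-201 made up 1.41% in dKO and 77.6% in WT. The gene's summed TPM was therefore close in bulk tumours (3.59 in dKO, 3.77 in WT) while its reads were not. These few reads rest on a short transcript with 26.6% of its 75-base windows shared with another gene. Of its windows, 85.6% were also in other transcripts of Zfp429, as were 98.9% of those of Zfp429-201. The split between the transcripts is therefore an estimate that few reads can decide. It was at 0 in all CD8 libraries, averaged 1.10 TPM in dKO CAFs and 0 in WT CAFs, and averaged 2.12 to 3.68 TPM over the iDF groups.

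**Figure D3:**
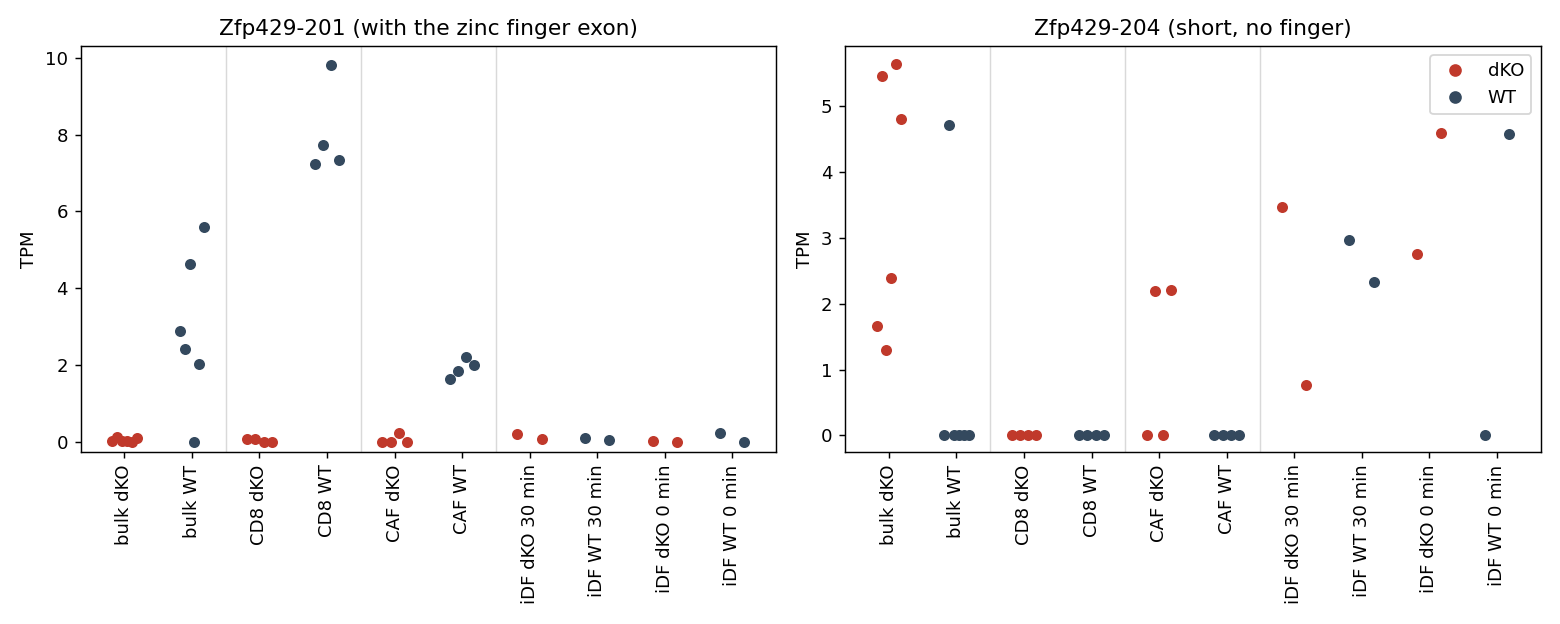
TPM (vertical axis) of Zfp429-201, the transcript with the zinc finger exon, and of Zfp429-204, a short transcript with no finger, in every library by group (dKO red, left of WT in dark blue). In CD8 T cells the 4 WT libraries have 7.23 to 9.82 TPM of Zfp429-201 and the 4 dKO libraries at most 0.083, while reads are assigned to Zfp429-204 in all 6 dKO tumours and in 1 of 6 WT tumours.

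Rsl1, the gene the cluster is named for, followed Zfp429 at a smaller size. In CD8 T cells it had 2.94, 1.53, 0 and 2.43 CPM in dKO, against 8.56, 11.2, 6.10 and 8.54 CPM in WT. In CAFs it had 0.638, 0.788, 1.02 and 1.05 CPM in dKO, against 2.82, 2.03, 2.65 and 3.06 CPM in WT. All dKO libraries lay below all WT libraries in both cell types, with WT means 4.99 times the dKO mean in CD8 T cells (log2 fold change -2.36, SE 0.97) and 3.02 times in CAFs (-1.60, SE 0.20).

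In bulk tumours Rsl1 ran between 3.99 and 5.94 CPM in dKO (median 4.85) and between 5.04 and 8.33 CPM in WT (median 6.56), a log2 fold change of -0.39 (SE 0.18). The groups overlapped across batches, but within each of the 3 batches both dKO tumours lay below both WT tumours. In iDFs the genotypes overlapped at both times. At 30 min Rsl1 had 2.39 and 2.75 CPM in dKO against 2.39 and 2.32 CPM in WT, and at 0 min 2.29 and 3.27 CPM in dKO against 2.73 and 2.92 CPM in WT. Its protein-coding transcript Rsl1-201 showed the same order, at 0.811 ± 0.613 TPM in dKO and 3.79 ± 1.03 TPM in WT CD8 T cells, and 0.586 ± 0.147 TPM in dKO and 1.80 ± 0.340 TPM in WT CAFs (SD, n = 4 each).

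Zfp456, the neighbour of Zfp429, had 1.45, 2.17, 0.055 and 0 CPM in dKO CD8 T cells, against 8.30, 7.43, 5.31 and 4.39 CPM in WT. In CAFs it had 0.638, 0.502, 0.245 and 0.454 CPM in dKO, against 1.49, 1.06, 1.76 and 1.41 CPM in WT. Again no dKO library reached the lowest WT library, and the WT mean was 6.93 times the dKO mean in CD8 T cells (log2 fold change -3.82, SE 1.34) and 3.11 times in CAFs (-1.64, SE 0.32). In bulk tumours the groups overlapped, at 1.06 to 2.38 CPM in dKO (median 2.15) and 1.92 to 2.65 CPM in WT (median 2.31).

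Zfp455, a near copy of Zfp456, did not separate the genotypes in sorted cells. It had 0 to 1.11 CPM in dKO and 0 to 3.98 CPM in WT CD8 T cells, and 0.280 to 0.939 CPM in dKO and 0.562 to 0.772 CPM in WT CAFs, with log2 fold changes of -2.32 (SE 1.54) and -0.57 (SE 0.41). With the reads of Rsl1, Zfp455, Zfp456 and Zfp429 summed, an alternative chosen after the data had been seen, which removes any sharing of reads among the 4, the log2 fold change was -3.34 in CD8 T cells, -1.82 in CAFs and -0.49 in bulk tumours. It was -0.16 in iDFs at 30 min and -0.18 at 0 min.

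Zfp874a and Zfp874b, another near-identical pair, did not move alike in CPM. Zfp874a had 9.17, 8.43, 6.75 and 3.42 CPM in dKO CD8 T cells, against 25.9, 11.1, 16.0 and 15.3 CPM in WT (log2 fold change -1.34, SE 0.39). In CAFs it had 3.10, 2.44, 4.29 and 3.11 CPM in dKO, against 5.48, 4.29, 6.03 and 6.32 CPM in WT (-0.78, SE 0.16). In both cell types the WT libraries were the higher ones, although the highest dKO CAF library (4.285 CPM) nearly met the lowest WT one (4.291 CPM). In TPM, Zfp874a overlapped in CD8 T cells (1.89 to 9.87 in dKO, 4.94 to 9.91 in WT). In CAFs its TPM was higher in dKO (4.20 to 4.45, against 3.29 to 4.18 in WT). Zfp874a-204, 483 bases long with no finger, had 0 reads in all WT CD8 and CAF libraries. It was assigned 1.6 to 14.0 reads in dKO CD8 libraries and 5.4 to 7.2 in dKO CAFs.

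Zfp874b had 3.88 to 8.95 CPM in dKO and 2.43 to 13.1 CPM in WT CD8 T cells, and 3.76 to 5.39 CPM in dKO and 2.70 to 4.45 CPM in WT CAFs, so the genotypes overlapped in both. Its log2 fold change was -0.08 in CD8 T cells and 0.36 (SE 0.15) in CAFs. With the pair summed, the log2 fold change was -0.90 in CD8 T cells and -0.24 in CAFs, and with an offset for effective transcript length that of Zfp874a in CAFs turned to 0.19. Over the other settings and the fits that left out a library, that of Zfp874a in CD8 T cells ran from -1.47 to -0.16.

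Zfp273, the most distant gene, had 0.425, 0.322, 0.612 and 0.350 CPM in dKO CAFs, against 0.821, 0.916, 0.992 and 1.37 CPM in WT (log2 fold change -1.26, SE 0.28). In these cells the dKO libraries lay below the WT libraries. In CD8 T cells (0 to 1.18 CPM in dKO, 0.0805 to 1.82 CPM in WT) and in bulk tumours (3.24 to 6.14 CPM in dKO, 2.99 to 8.53 CPM in WT) Zfp273 overlapped between genotypes. Zfp458, which has the longest finger array of the cluster, overlapped in all 3 kinds of tumour sample, with a log2 fold change of -0.08 (SE 0.18) in CAFs.

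Zfp708 and Zfp457 did not pass the filter on low counts in CD8 T cells and CAFs, and Zfp457 did not in iDFs. Zfp708 had 0 CPM in all 4 dKO CD8 libraries, against 2.46, 1.56, 1.71 and 0 CPM in WT, so the WT mean of 1.43 CPM was at least 9.91-fold higher than the floor of 3 reads per dKO library. Summed with Gm28557 it had 0.088, 1.14, 0.443 and 0 CPM in dKO CD8 T cells, against 2.46, 1.56, 1.74 and 1.93 CPM in WT. Zfp457 was higher in all dKO than in all WT CAF libraries, at 0.383, 0.394, 0.775 and 0.385 CPM in dKO against 0.078, 0.193, 0.184 and 0.246 CPM in WT, all of them low counts.

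A gene counted as called where edgeR gave it a log2 fold change beyond 0.75 in either direction together with an adjusted p below 0.05. In CAFs 5 of the 8 members that passed the filter were called lower in dKO (Rsl1, Zfp273, Zfp429, Zfp456 and Zfp874a), where 4.03% of all genes tested were called lower. Among CD8 T cells it was 1 of 8 (Zfp429), where 0.234% of genes were. In bulk tumours none of 10 was called (0.0276% of genes called lower), with 1 member at an unadjusted p under 0.05 and none called by DESeq2. In iDFs none of 9 was called at 30 min (5.07% of genes) or at 0 min (5.10% of genes), with 1 member at an unadjusted p under 0.05 at each time, and DESeq2 called 1 at 30 min and none at 0 min. Since these contrasts chose the members, nothing is read from the counts, and the members that passed the filter are not all members.

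The median log2 fold change of the tested members was -1.83 in CD8 T cells and -1.02 in CAFs, against 0.00 over all genes tested in either cell type. It was -0.08 in bulk tumours, -0.32 in iDFs at 30 min and -0.30 in iDFs at 0 min, against 0.02, -0.01 and 0.00 over all genes. All dKO libraries lay below all WT libraries for 4 of the 8 tested members in CD8 T cells (2.96% of genes tested), 5 of 8 in CAFs (6.87%) and none of 10 in bulk tumours (0.359%). Summed over the 10 genes, CD8 libraries had 13.3 to 24.4 CPM in dKO and 50.1 to 74.9 CPM in WT, and CAF libraries 9.78 to 14.98 CPM in dKO and 15.9 to 20.8 CPM in WT. In bulk tumours the sum averaged 49.7 CPM in dKO and 54.0 CPM in WT. In TPM, which allows for transcript length, the CAF sums overlapped, at 12.9 to 16.8 in dKO and 12.7 to 16.4 in WT. The CD8 sums stayed apart, at 7.01 to 20.1 TPM in dKO and 28.7 to 46.85 TPM in WT.

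The CAF count depended on single libraries and on transcript length. It was 2 of 8 without WT replicate 1, WT replicate 4 or dKO replicate 4, it was 3 of 8 without dKO replicate 2, and it was 1 of 8 with the length offset. Rsl1 and Zfp429 were called in all 8 fits that left out a CAF library, Zfp456 in 5, Zfp874a in 3 and Zfp273 in 2. The CD8 call of Zfp429 held in 7 of the 8 fits that left out a CD8 library, the exception being the fit without dKO replicate 1. Zfp429 is also where length matters most, since its log2 fold change with the length offset was -4.14 in CD8 T cells, -1.85 in CAFs and 1.18 in bulk tumours, where it turned the direction of the value without the offset (-2.39).

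**Figure D4:**
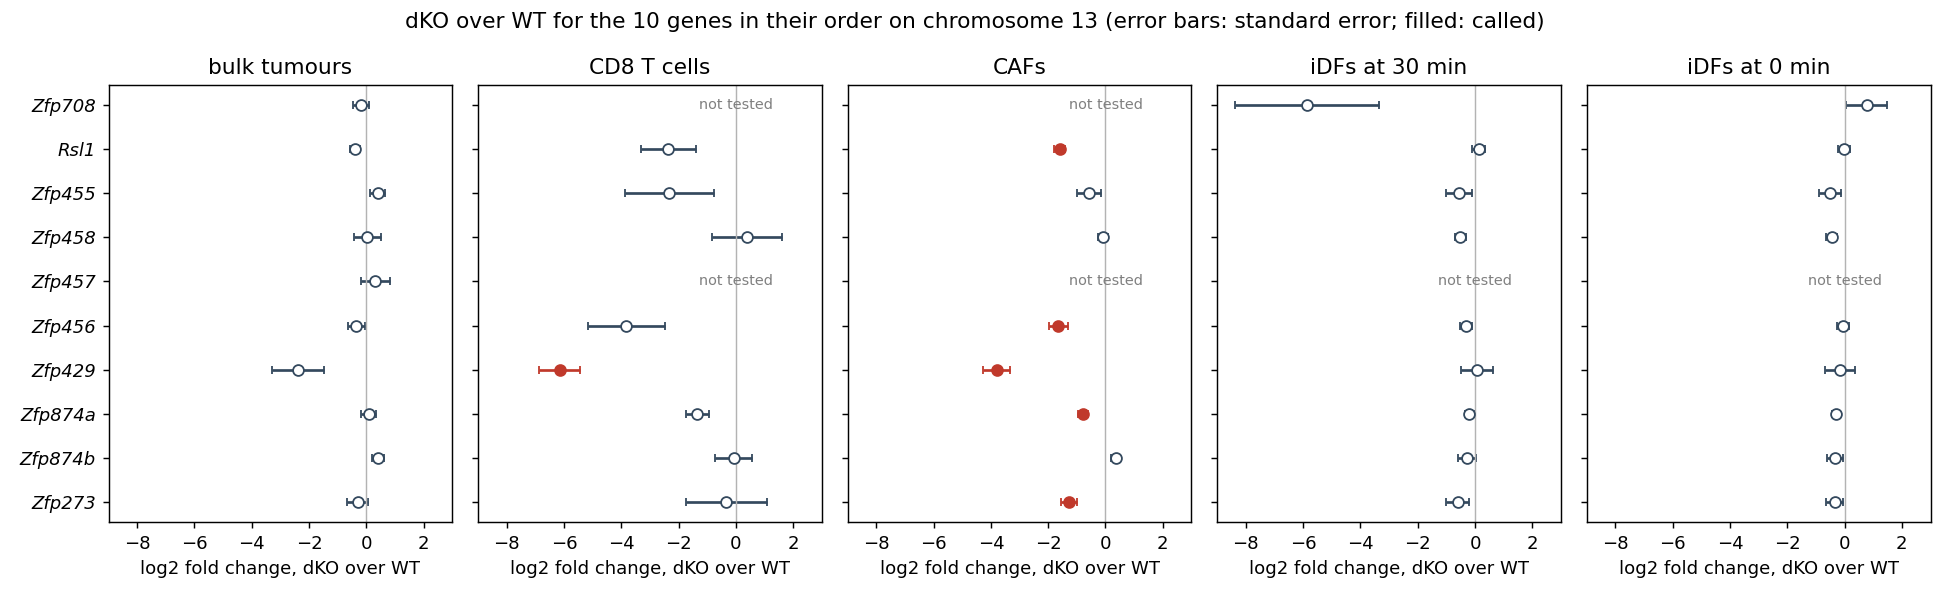
Log2 fold change of dKO over WT (horizontal axis) for the 10 genes in their order on chromosome 13, in bulk tumours, CD8 T cells, CAFs, and iDFs at 30 and 0 min; bars are standard errors and filled points were called. Zfp429 stands at -6.15 in CD8 T cells and -3.79 in CAFs, while in iDFs at 0 min no gene is beyond -0.52 or 0.78.

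The choice of members did not use the change with serum within a genotype, so that change could be tested. The difference of this change between genotypes is made of the dKO against WT contrasts that chose the members. It is therefore given as a description. Zfp273 fell in both genotypes after 30 min. In dKO iDFs it had 0.704 and 0.381 CPM at 30 min, against 1.94 and 1.76 CPM at 0 min (log2 fold change -1.75, SE 0.35, edgeR adjusted p = 0.015). In WT iDFs it had 1.03 and 0.645 CPM at 30 min, against 2.69 and 2.03 CPM at 0 min (-1.50, SE 0.33, edgeR adjusted p = 0.034). The libraries at 30 min lay below those at 0 min in each genotype, but by DESeq2 the WT value missed the threshold (-1.49, adjusted p = 0.088), and edgeR kept the WT call in 2 of the 8 fits that left out a library (it was lost without any 1 of the 4 libraries at 0 min or either WT library at 30 min).

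Zfp708 fell in dKO iDFs, where it had 0 CPM in both libraries at 30 min, against 1.497 and 1.547 CPM at 0 min, so it was at least 12.5-fold lower than at 0 min by the floor of 3 reads per library (edgeR adjusted p = 0.042). In WT iDFs it had 0 and 0.559 CPM at 30 min, against 1.05 and 0.718 CPM at 0 min (adjusted p = 0.41). Because nearly all of its sequence is shared with Gm28557, the sum of both is the safer value. In dKO iDFs the sum was 1.49 and 1.10 CPM at 30 min, against 3.60 and 3.71 CPM at 0 min (log2 fold change -1.49, SE 0.23, edgeR adjusted p = 0.0045). In WT iDFs it was 2.48 and 1.76 CPM at 30 min, against 3.997 and 4.604 CPM at 0 min (-1.02, SE 0.22, edgeR adjusted p = 0.030). The sum was chosen after the data had been seen, and the edgeR interaction term did not call a difference of this change between genotypes (-0.47, SE 0.32, adjusted p = 1.0).

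Of the 9 members tested, 2 were called lower after serum in dKO iDFs (1.18% of genes tested were) and 1 in WT iDFs (0.438% of genes). Among other chromosome 13 genes with 3 or more C2H2 fingers, 4 of 37 were called lower in dKO iDFs (10.8%) and 2 higher. In WT iDFs, 3 of those 37 were called lower (8.11%) and 1 higher. Zfp455 had 0.978 and 0.719 CPM at 30 min in dKO iDFs, against 1.59 and 1.87 CPM at 0 min, but missed the threshold (log2 fold change -1.02, SE 0.43, edgeR adjusted p = 0.19), and in WT iDFs its value was -1.0 (SE 0.41, adjusted p = 0.21). The log2 fold changes of Rsl1 (-0.11 in dKO, -0.26 in WT), Zfp429 (0.18, -0.05), Zfp456 (-0.01, 0.27), Zfp458 (-0.24, -0.18), Zfp874a (-0.21, -0.31) and Zfp874b (-0.43, -0.48) did not pass the test in either genotype. The difference of the serum response between genotypes was called for none of 9 members (0.0139% of genes called in either direction). Zfp708 alone had an unadjusted p under 0.05 there (0.0446, edgeR adjusted p = 1.0), and DESeq2 called none.

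The dKO count of 2 went to 0 without dKO replicate 1 or 2 at 0 min or dKO replicate 2 at 30 min, and to 1 without dKO replicate 1 at 30 min or either WT library at 0 min. The iDF replicates are repeats of 1 line per genotype, so these p-values measure the spread between cultures of that line, which may be technical.

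**Figure D5:**
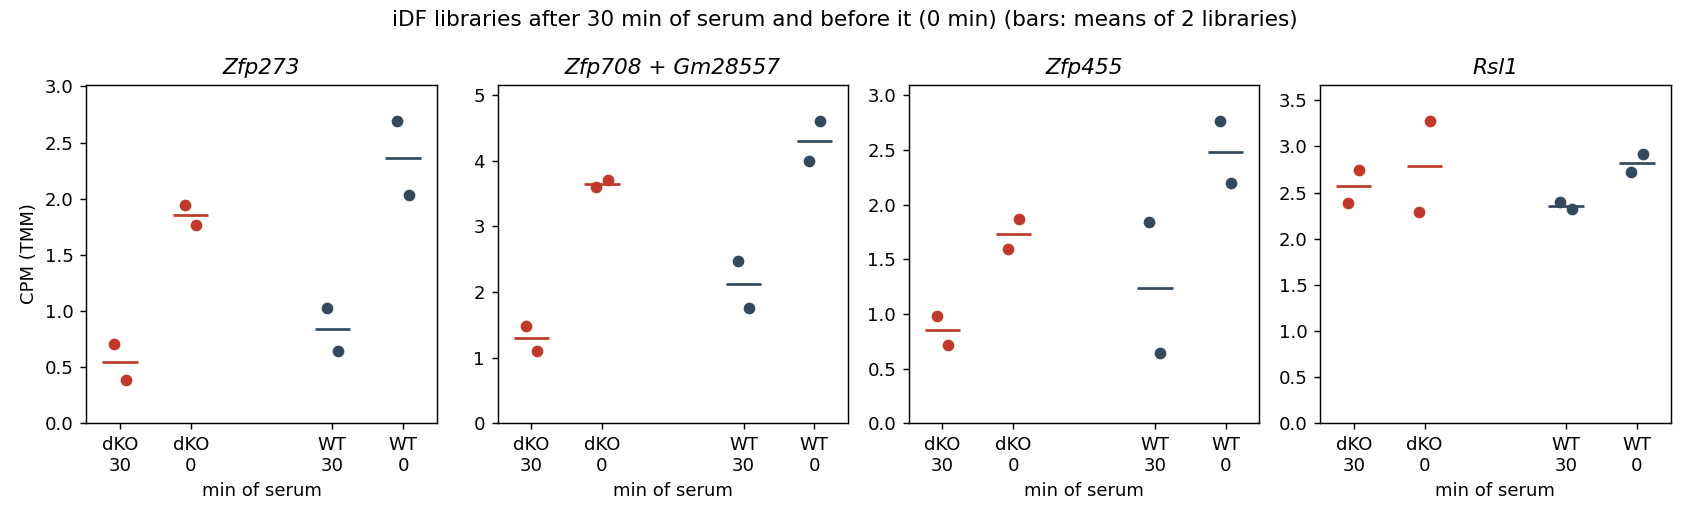
CPM (TMM-scaled, vertical axis) of Zfp273, of Zfp708 and Gm28557 summed, of Zfp455 and of Rsl1 in iDF libraries at 30 min and 0 min of serum, dKO in red and WT in dark blue; bars are means of 2 libraries. Zfp273 is at 0.381 to 1.03 CPM at 30 min and at 1.76 to 2.69 CPM at 0 min over both genotypes, while Rsl1 stays between 2.29 and 3.27 CPM.

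Because Rsl1 and Rsl2 act on genes with a sex bias in liver, the levels of the cluster were tested between male and female samples. No member was called in bulk tumours (0.0332% of genes were), CD8 T cells (0.00669%) or CAFs (1.91%) by edgeR, and none was by DESeq2. The number at an unadjusted p under 0.05 was 0 of 10 in bulk tumours, 0 of 8 in CD8 T cells and 2 of 8 in CAFs. For Rsl1 the male over female log2 fold change was 0.02 (SE 0.19) in bulk tumours, 0.20 (SE 0.93) in CD8 T cells and -0.36 (SE 0.20) in CAFs, and for Zfp429 it was -1.84 (SE 1.07), 1.00 (SE 0.62) and -0.45 (SE 0.44). The wide errors in CD8 T cells leave room for differences in either direction.

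The difference of the genotype effect between sexes was called for no member in CD8 T cells (0% of genes called) or CAFs (0%) by edgeR, with 1 member in CD8 T cells and none in CAFs at an unadjusted p under 0.05. That member was Zfp456, which had 1.45 and 2.17 CPM in dKO males and 0.055 and 0 CPM in dKO females, against 5.31 and 4.39 CPM in WT males and 8.30 and 7.43 CPM in WT females. The interaction was 6.45 on the log2 scale (SE 1.2, edgeR adjusted p = 0.767), with 2 animals of each sex and genotype. In CAFs it was 0.98 (SE 0.57, adjusted p = 0.989). These interactions reuse the dKO and WT values that chose the members, so they are given as a description.

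The span of the cluster held 42 other genes and a further 72 lay within 1 Mb of it. Of these, 23 passed the filter in CAFs and 3 were called there. Gm49064, a long non-coding RNA gene, was higher in dKO (0.42 to 0.86 CPM in dKO, 0.05 to 0.28 CPM in WT, log2 fold change 1.77, SE 0.46, edgeR adjusted p = 0.049). Gm49345, a gene whose protein has 18 C2H2 fingers, was called higher in dKO too (0.50 to 0.73 CPM in dKO, 0 in all 4 WT libraries, at least 5.48-fold higher than the floor of 3 reads per library). By position it overlaps Zfp729b and Zfp729a on the same strand, and neither was called in CAFs (log2 fold changes 0.22 and -0.09). The Gm49345 estimate ran from 0 to 6.92 CPM within WT CD8 libraries and from 0 to 6.43 CPM within dKO ones. In every bulk tumour it was 0. How reads were split among these overlapping genes was not tested, so the values of Gm49345 are uncertain. Adcy2, an adenylyl cyclase, was lower in dKO (19.6 ± 1.10 CPM in dKO, 37.9 ± 3.60 CPM in WT, log2 fold change -0.95, SE 0.09, edgeR adjusted p = 0.00079).

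No such neighbour was called in bulk tumours or CD8 T cells, and in iDFs at 0 min Gm49064 was called in the other direction (-0.90, edgeR adjusted p = 0.034). With 1 iDF line per genotype, line and genotype cannot be told apart in that value. Over the rest of chromosome 13, members aside, 29 of 574 genes were called lower in dKO CAFs (5.05%) and 4 of 602 in dKO CD8 T cells (0.664%), and none of 682 in bulk tumours. In iDFs 15 of 529 were called lower at 30 min (2.84%) and 24 of 529 at 0 min (4.54%).

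Other genes of the repressor pathway were mostly not called. None of 20 genes of the KRAB corepressor machinery, among them Trim28 and the histone methyltransferase Setdb1, was called in any comparison. Of 11 genes that the Rsl locus is known to repress in mouse liver, 2 to 4 passed the filter, and C4b was called. C4b, a complement component 4 gene, was lower in dKO iDFs at 30 min (log2 fold change -3.58, SE 0.35, edgeR adjusted p = 9.0e-05) and at 0 min (-2.89, SE 0.32, edgeR adjusted p = 0.00017). The iDF replicates within a genotype are repeat cultures of the same line. Line and genotype therefore cannot be told apart in the iDF values of C4b, and their p-values measure the spread between cultures. The log2 fold change of C4b was 0.07 in CAFs and 0.23 in bulk tumours. C4b and C4a are near copies, so reads may be split between them.

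Among other genes with 3 or more C2H2 fingers, 20 of 527 were called lower and 9 higher in dKO CAFs (3.80% lower), 6 of 459 lower and 1 higher in dKO CD8 T cells, and 2 of 548 lower and none higher in dKO tumours. After serum 47 were called lower and 12 higher in dKO iDFs (8.94% lower, against 1.18% of all genes), and 16 lower and 10 higher in WT iDFs (3.04% lower, against 0.438% of all genes).

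Over the 36 libraries, after the mean of each kind of sample was removed, the members most alike in log2(CPM + 1) were Rsl1 and Zfp456 (Pearson r = 0.84), Rsl1 and Zfp429 (0.79), Zfp456 and Zfp874a (0.79), and Zfp456 and Zfp429 (0.77). With the mean of each genotype removed as well, these were 0.39, 0.23, 0.50 and 0.16. Other pairs gained, such as Zfp874a and Zfp874b (0.30, and 0.64 with the genotype means removed). Among 11494 genes outside the cluster, those most like Rsl1 were Gm6548 (0.87), Gm45315 (0.82), Gm11645 (0.81), Tbp (0.81), which encodes the TATA-binding protein, and Rpap3 (0.81). These correlations share libraries and depth and are given as a description.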

How the data were processed

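Transcripts were quantified by the authors with Salmon 1.2.1 (GRCm38.p6, Gencode M25), and the deposited estimated counts and TPM per transcript were used. Both were summed per gene here with Gencode M21, the GRCm38 annotation at hand (99.15% of transcripts matched, and unmatched ones held 0.246 to 0.521% of reads). Estimated counts were rounded. edgeR 4.0.16 (R 4.3.3) fitted quasi-likelihood models over all genes (minimum count 10, minimum total 15, TMM, robust), with batch, sex and genotype in bulk tumours, sex and genotype in CD8 T cells and CAFs, and 4 groups in iDFs. P-values were Benjamini-Hochberg adjusted over all genes tested. The fits were tested on simulated data. No libraries were duplicates. The members and gene lists were chosen with earlier results of these data known. Named were all members, called genes within 1 Mb, and at most 3 called genes a direction of each other list. Alternatives were DESeq2 1.42.0, RLE factors, no low-count filter, a length offset, other covariates, no fold threshold, a replicate block, each library left out, and, chosen after seeing the data, near-identical copies summed. Fingers, identities and shared 75-base windows came from the reference transcripts (Biopython 1.88), and promoters from RefSeq, in which all 10 members matched by symbol. Some alleles and sequences are not reported here.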

Additional observations from a re-analysis of the deposited data

Results flagged for a closer look

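Over the 10 genes, 58 groups of 4 to 6 libraries were checked for a library standing apart from its group, and 5 were found; chance gives about 1 in 20 groups. Zfp708 had 0.82 CPM in WT CAF replicate 2 and 0 in the other WT CAF libraries. Zfp455 had 0.939 CPM in dKO CAF replicate 3, against 0.28 to 0.34 CPM in the others. Zfp457 had 1.494 CPM in dKO CD8 replicate 2, against 0 to 0.174 CPM in the others, and 0.775 CPM in dKO CAF replicate 3, against 0.383 to 0.394 CPM in the others. Zfp874a had 5.261 CPM in WT bulk tumour replicate 4, against 10.195 to 12.404 CPM in the other WT tumours. That tumour also had 0 CPM of Zfp429 and was the shallowest bulk library, with 22245177 reads in genes. WT replicate 1 of the same batch had 23180431 reads in genes and 4.693 CPM of Zfp429. The cause of the 0 was not tested.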

How the results depend on the processing

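Of the counts of called members, 54 of 65 values under an alternative, and 79 of 96 with a library left out, stayed within 1.5 times the reported count. The share with a library left out rests largely on counts of 0 that stayed 0. These were the counts in bulk tumours, in iDFs at 0 min, between sexes and in the serum interaction. In CD8 T cells the count (1) was 3 by DESeq2, 5 without a filter and 0 with the length offset, and 0 to 1 with a library left out. In CAFs (5) it was 1 with the length offset and 3 without sex, and 2 to 5 with a library left out. In iDFs at 30 min (0) it was 1 by DESeq2 and 0 to 1 with a library left out (1 without either WT library at 30 min). The serum count in WT (1) was 0 by DESeq2 and with the length offset, and 0 to 1 with a library left out. The serum count in dKO (2) was 1 without a filter, 1 with the length offset and 1 with the replicate block, and 0 to 2 with a library left out.

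Directions turned for Zfp874a in CAFs (0.19) and Zfp429 in bulk tumours (1.18, not called under either setting) with the length offset, for Rsl1 between sexes in bulk tumours with copies summed (-0.15) and with the offset (-0.13) and in CAFs with the offset (0.11), and after serum with the offset for Zfp429 in WT (0.62) and in dKO (-0.68), Rsl1 in dKO (0.10) and Zfp456 in dKO (0.40). By DESeq2 the change of Zfp456, serum in dKO iDFs, was 0.000814. With a library left out, Rsl1 between sexes ran from -0.0711 to 0.15 in bulk tumours and from -0.31 to 0.90 in CD8 T cells. After serum, Zfp429 ran from -0.13 to 0.0269 in WT and from -0.98 to 0.78 in dKO, Rsl1 from -0.35 to 0.16 in dKO and Zfp456 from -0.12 to 0.11 in dKO. The cause was not tested.

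Zfp708 in dKO iDFs after serum had adjusted p = 0.15 without a filter, 0.087 with the replicate block and 0.067 with the offset. The replicate numbers of the iDF groups share only a number (correlations of deviations 0.0159 to 0.148). Over all genes, counts moved by more than 1.5 times in bulk tumours (8, DESeq2 191, no filter 25, without sex 21), CD8 T cells (74, DESeq2 451, no filter 844), CAFs (865, without sex 386, no fold threshold 1503), iDFs (1301 at 30 min and 1313 at 0 min, no fold threshold 4785 and 4722), after serum (479 in dKO and 294 in WT, no fold threshold 1461 and 770), in the serum interaction (2, DESeq2 7, no filter 7, replicate block 4), and between sexes in bulk tumours (6, DESeq2 28, no filter 11), CD8 T cells (1, DESeq2 44, no filter 399, length offset 2) and CAFs (302, DESeq2 693, no fold threshold 485). CD8 libraries, with down to 17526681 reads and a biological coefficient of variation of 0.521 against 0.18 in CAFs, limit the values most.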
